A study of Mus musculus with 50 samples.

Results

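Interferon-stimulated genes are the genes that cells switch on when interferons bind their receptors. Members were the rows of the deposited table whose gene symbol was among 39 chosen symbols, and all 39 were found among its 35717 genes. RNA came from the left ventricle of 50 C57BL/6J mice aged 40 weeks, and each library was poly(A) RNA of bulk tissue. Tg mice overexpress LARP6, an RNA-binding protein that binds collagen mRNAs, in cardiomyocytes, per the series title; WT mice served as controls. Neither the promoter that drives the transgene nor the number of transgenic lines is given in the sources used here. The 4 groups were 13 Tg mice given 1000 ng/kg/min of Ang II (angiotensin II, which constricts blood vessels), 12 Tg mice given saline, 14 WT mice given Ang II at that dose and 11 WT mice given saline. Tissue was taken after 21 days, and each group held females and males (7 and 6 Tg Ang II, 6 and 6 Tg saline, 7 and 7 WT Ang II, 5 and 6 WT saline). In bulk tissue, more cells of a type and more RNA per cell cannot be told apart.

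Type I and type III interferons act through the kinases JAK1 and TYK2 and, with STAT2 and IRF9, on a DNA element called the interferon-stimulated response element (ISRE). Interferon gamma acts through JAK1 and JAK2 on the gamma-activated site (GAS). IRF7, itself induced by interferon, drives the interferon alpha genes, and the induced genes include sensors of viral RNA, blockers of translation and virus release, and the parts of the antigen-processing machinery that are exchanged during inflammation. In the heart such genes are expressed by cardiomyocytes, endothelial cells, fibroblasts and macrophages.

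Promoter windows of RefSeq (GRCm38.p6, 250 bases before to 50 bases after the start of transcription) were found for 30 of the 39 members. The ISRE core was searched for on both strands as GAAANNGAAA and the GAS as TTCNNNGAA, and overlapping matches were counted separately. An ISRE core was found in 15 of the 30 members (50.0%), and in 3.99% of the 27025 genes with a window. A GAS was found in 8 of the 30 members (26.7%) and in 9.55% of all genes. The 150 bases before the start are printed below for the 3 members of the Ifit cluster, which were all called higher in Tg saline than in WT saline hearts, and for Irf7, Oas1a, Isg15 and Rsad2, which were picked after their values were seen. Each runs 5′ to 3′ on the strand of the gene, and capitals mark ISRE cores on either strand. The positions are chr19:34550544-34550693 (+) for Ifit2, chr19:34583379-34583528 (+) for Ifit3, chr19:34640739-34640888 (+) for Ifit1, chr7:141266425-141266574 (-) for Irf7, chr5:120907526-120907675 (-) for Oas1a, chr4:156200819-156200968 (-) for Isg15 and chr12:26456453-26456602 (-) for Rsad2.
Ifit2: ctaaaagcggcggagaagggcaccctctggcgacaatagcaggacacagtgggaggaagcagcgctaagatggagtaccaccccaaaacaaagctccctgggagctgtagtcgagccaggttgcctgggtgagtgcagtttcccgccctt
Ifit3: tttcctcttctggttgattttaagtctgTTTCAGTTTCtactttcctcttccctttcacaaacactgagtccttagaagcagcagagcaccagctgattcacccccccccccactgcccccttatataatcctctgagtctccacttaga
Ifit1: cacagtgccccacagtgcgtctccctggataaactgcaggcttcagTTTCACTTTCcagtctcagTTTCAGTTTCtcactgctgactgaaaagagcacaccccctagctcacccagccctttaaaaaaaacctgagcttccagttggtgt
Irf7: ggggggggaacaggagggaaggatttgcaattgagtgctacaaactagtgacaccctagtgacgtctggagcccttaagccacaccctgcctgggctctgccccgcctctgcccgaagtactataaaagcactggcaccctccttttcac
Oas1a: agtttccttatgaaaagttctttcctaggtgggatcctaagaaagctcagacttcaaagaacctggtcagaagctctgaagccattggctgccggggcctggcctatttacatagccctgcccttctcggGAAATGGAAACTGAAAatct
Isg15: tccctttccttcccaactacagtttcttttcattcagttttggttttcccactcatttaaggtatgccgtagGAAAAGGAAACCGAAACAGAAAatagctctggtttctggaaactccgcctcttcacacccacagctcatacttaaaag
Rsad2: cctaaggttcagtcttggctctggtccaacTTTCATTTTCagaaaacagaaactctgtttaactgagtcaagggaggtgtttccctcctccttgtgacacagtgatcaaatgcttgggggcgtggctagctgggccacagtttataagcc
Ifit1 held 2 cores and Ifit3 held 1 in these stretches, while the neighbouring Ifit2 held 0. Isg15 held 3 overlapping cores and Oas1a held 2. Rsad2 held 1, and Irf7 held 0. The window of Psmb10 is not shown, because its RefSeq start lies upstream of the start in the files. Of the members called higher in Tg saline than in WT saline hearts (given further on), 6 of the 10 with a window held a core, as did 6 of the 12 called in no comparison of groups. A match is a run of letters and not evidence of binding.

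The libraries held 53877439 to 91579342 counts, of which 28.1% to 38.8% came from mitochondrial genes. Larp6 marked the genotype: it ran from 587 to 1177 scaled FPKM in Tg Ang II hearts, from 443 to 1627 in Tg saline hearts and from 5.59 to 63.5 in WT saline hearts. In WT Ang II hearts it ran from 19.6 to 62.8 in 13 libraries and stood at 1001 in library 329, which is the library labelled WT whose level is that of Tg hearts. The column names of 2 libraries, 329 (labelled WT Ang II) and 847 (labelled Tg Ang II, Larp6 at 1117), carry the letters of the other genotype. Both were kept under their labels, and counts are also given without them.

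Levels are given as scaled FPKM, the deposited FPKM divided by a factor that sets the typical gene equal between libraries (0.778 to 1.14). They are corrected for gene length, so members can be compared with each other. The most abundant members were Ifitm3 at 50.6 and Ifitm2 at 45.1 scaled FPKM on average over the 50 libraries; they encode membrane proteins that block virus entry. These neighbouring genes are close in sequence, so their reads may be split between them. Psmb10, a catalytic subunit of the immunoproteasome, followed at 15.0, then Ifi27 at 9.60, a mitochondrial protein, and Bst2 at 7.82, which tethers budding viruses to the cell. Most other members lay between 1 and 7. Of the 39 members, 33 reached 1 FPKM in 5 or more libraries and were tested.

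The 6 members left out averaged below 1 scaled FPKM in all 4 groups. They were Ifi44 at 0.595, with 3 libraries at or above 1 FPKM, the ubiquitin-like conjugation ligase gene Herc6 at 0.501, the RNA-sensor regulator Dhx58 at 0.499, the antiviral GTPases Mx2 at 0.460 and Mx1 at 0.218, and the oligoadenylate synthetase Oas3 at 0.0784, and except for Ifi44 none of the 50 libraries reached 1 FPKM. Psmb9, Usp18 and Ifih1 lay at the limit: they averaged 1.04, 1.02 and 1.0, and 26, 23 and 25 of the 50 libraries reached 1 FPKM. Each averaged below 1 scaled FPKM in a single group and above 1 in the others. Psmb9 was at 0.889 in Tg Ang II hearts, Usp18 at 0.879 in WT saline hearts and Ifih1 at 0.937 in Tg saline hearts. Mx1, one of the best-known interferon-induced genes, had 9 to 206 counts per library. With no filter on low values, Mx1 and Oas3 were higher in Tg saline than in WT saline hearts, by 0.92 ± 0.29 and 0.92 ± 0.29 on the log2 scale (SE; adjusted p = 0.0218 and 0.0206). Under the same setting Ifi44 was higher in WT Ang II than in WT saline hearts, by 0.59 ± 0.16 (SE; adjusted p = 0.0172).

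**Figure D1:**
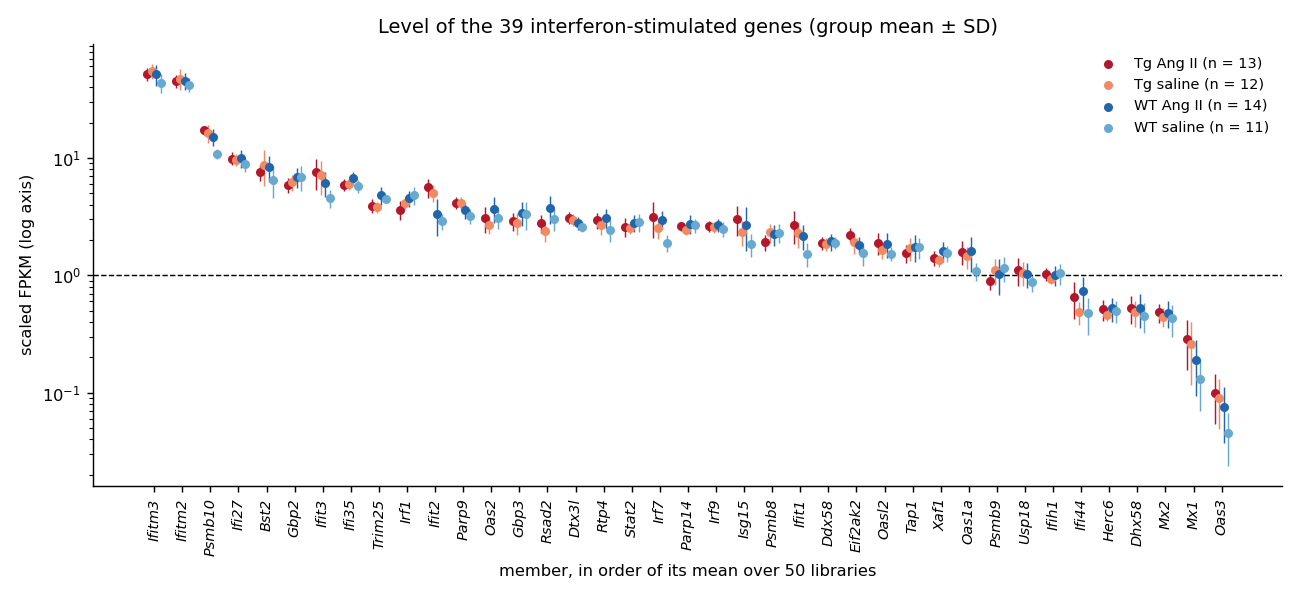
Mean scaled FPKM (log axis) of each of the 39 members in the 4 groups, with bars of 1 SD and a dashed line at 1. Ifitm3 and Ifitm2 lie near 50, most members between 1 and 7, and the 6 members at the right end below 1 in every group.

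Tg saline against WT saline hearts shows the transgene without Ang II. Here 11 of the 33 tested members rose and 2 fell, at an adjusted p below 0.05 in edgeR's quasi-likelihood test, fitted to all 11628 tested genes. The changed members are 39.4% of those tested, near the 40.5% of all genes that changed. Higher members were 33.3% of those tested, against 20.4% of all genes called higher; of all genes, 20.1% were called lower. The median log2 fold change was 0.09 over the members and 0.00 over all tested genes. With library size as the only scaling, the median of all genes itself moved to 0.14, and the split became 16 higher and 0 lower. Rsad2 was then at -0.21 and Trim25 at -0.09, and neither passed.

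Of the 4 regulators, only Irf7 passed the test. Irf7 (chromosome 7, 141262706 to 141266481) ran from 1.48 to 3.37 scaled FPKM with a median of 2.60 in Tg saline hearts, and from 1.3 to 2.38 with a median of 2.01 in WT saline hearts. The groups overlapped, and 8 of the 12 Tg saline libraries lay above every WT saline library. Its log2 fold change was 0.42 ± 0.13 (SE; adjusted p = 0.00888). Irf7 overlaps Phrf1 on the other strand, and the strand setting of the counting is not given; Phrf1 had a log2 fold change of -0.04 ± 0.05 (SE; adjusted p = 0.556). The other regulators had log2 fold changes of 0.04 for Irf9 (adjusted p = 0.693), -0.17 for Stat2 (adjusted p = 0.151) and -0.22 for Irf1 (adjusted p = 0.0592). Irf9 overlaps Rnf31 on the same strand, so reads of these genes may not have been told apart. The log2 fold change of Rnf31 was -0.25 ± 0.05 (SE, adjusted p = 9.44e-05).

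All 3 tested Ifit genes rose. Their proteins bind viral RNA and hold back its translation. Ifit2 ran from 3.70 to 6.51 scaled FPKM with a median of 4.97 in Tg saline hearts, and from 2.39 to 3.87 with a median of 2.74 in WT saline hearts. The groups met at a single Tg library, and the log2 fold change was 0.79 ± 0.21 (SE; adjusted p = 0.00245). Ifit3 ran from 4.02 to 11.7 with a median of 7.17 in Tg saline hearts, and from 3.44 to 5.71 with a median of 4.23 in WT saline hearts; the log2 fold change was 0.65 ± 0.16 (SE; adjusted p = 0.000811). Ifit1 ran from 1.45 to 3.28 with a median of 2.38 in Tg saline hearts, and from 1.07 to 2.10 with a median of 1.36 in WT saline hearts; the log2 fold change was 0.58 ± 0.16 (SE; adjusted p = 0.00247). For both genes the groups overlapped, with 8 and 7 of the 12 Tg saline libraries above every WT saline library.

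Of the oligoadenylate synthetases, which make the messenger that activates RNase L, Oas1a rose by 0.41 ± 0.14 on the log2 scale (SE; adjusted p = 0.0205). It ran from 1.04 to 1.87 scaled FPKM in Tg saline hearts with a median of 1.5, and from 0.878 to 1.43 in WT saline hearts with a median of 1.0. Oasl2 and Oas2 did not pass, with log2 fold changes of 0.09 and -0.22. Isg15, a ubiquitin-like modifier, had a log2 fold change of 0.34 ± 0.17 (SE; adjusted p = 0.111), and Usp18, the protease that removes it from proteins, 0.26 ± 0.15 (SE; adjusted p = 0.168). Parp9 and its partner ligase Dtx3l, which overlap on opposite strands, rose by 0.36 ± 0.08 and 0.22 ± 0.07 (SE; adjusted p = 0.000329 and 0.0125). Parp14 did not pass, at -0.12.

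The RNA sensors and the antiviral effectors split in direction. Eif2ak2, the kinase PKR that halts translation on double-stranded RNA, rose by 0.33 ± 0.10 (SE; adjusted p = 0.0104). Trim25, a ubiquitin ligase that activates RIG-I, fell by 0.23 ± 0.08 (SE; adjusted p = 0.0117); it ran from 3.18 to 4.6 scaled FPKM in Tg saline hearts and from 3.99 to 5.28 in WT saline hearts. The sensors Ddx58 (RIG-I) and Ifih1 (MDA5) had log2 fold changes of -0.04 and -0.15 and did not pass. Ifitm3 rose by 0.33 ± 0.10 (SE; adjusted p = 0.00499) and Bst2 by 0.42 ± 0.15 (SE; adjusted p = 0.0249). Rsad2 (viperin, which makes a chain-terminating nucleotide) fell by 0.35 ± 0.13 (SE; adjusted p = 0.0226); it ran from 1.65 to 3.12 scaled FPKM with a median of 2.36 in Tg saline hearts, and from 1.93 to 3.9 with a median of 3.01 in WT saline hearts. The groups overlapped for both members that fell. Neither guanylate-binding protein passed; Gbp2 was at -0.15 and Gbp3 at -0.23.

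Of the 4 antigen-processing members, Psmb10 was the only one to pass. Psmb10 (chromosome 8, 105935735 to 105938104) ran from 13.3 to 22.9 scaled FPKM with a median of 15.4 in Tg saline hearts, and from 8.70 to 12.5 with a median of 11 in WT saline hearts. The groups did not overlap, and the log2 fold change was 0.58 ± 0.08 (SE; adjusted p = 1.82e-07). The other immunoproteasome subunits, Psmb8 and Psmb9, had log2 fold changes of 0.00 and -0.07 (adjusted p = 0.977 and 0.739), with 95% intervals from -0.20 to 0.21 and from -0.35 to 0.22. Tap1, the peptide transporter, was at -0.02. The constitutive subunits that the immunoproteasome replaces, Psmb5, Psmb6 and Psmb7, were at 0.06, 0.02 and 0.02, and 0 of these 3 passed; at an unadjusted p below 0.05 the count in this comparison was also 0.

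In this comparison 5 calls ended when the 10 runs of neighbouring library numbers were added to the fit as a term: Bst2, Eif2ak2, Oas1a, Rsad2 and Trim25, with adjusted p-values of 0.0626, 0.0605, 0.0906, 0.0796 and 0.0525. Whether a run of numbers is a batch is not stated. Leaving out single libraries ended the call of Bst2 (library 153, 718 or 965) and of Rsad2 (library 239 or 332).

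**Figure D2:**
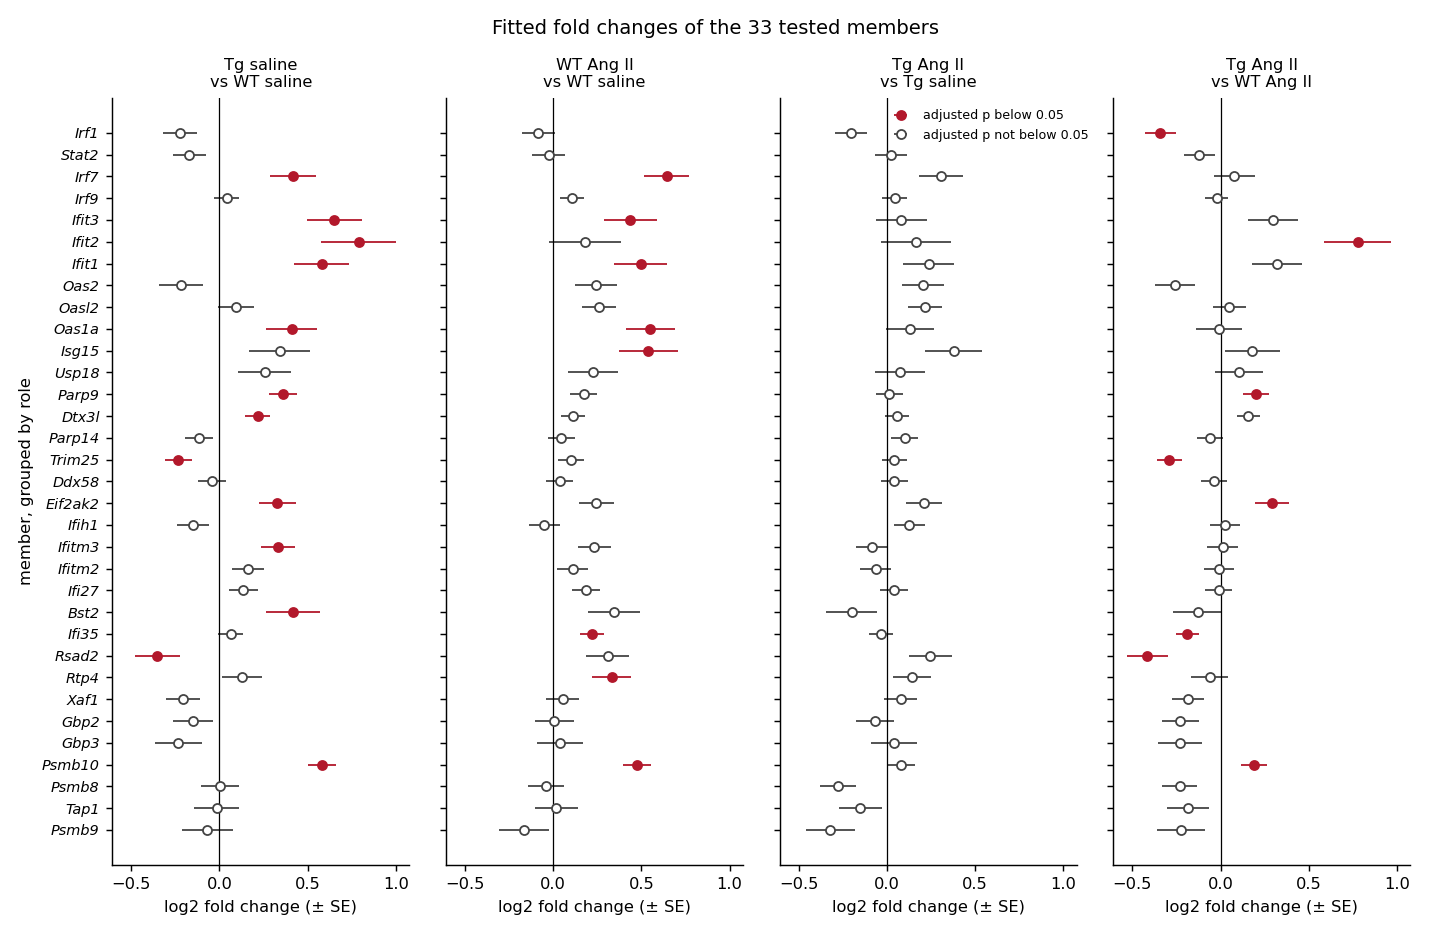
Fitted log2 fold change (± SE) of the 33 tested members, grouped by role, in 4 comparisons; filled red points have an adjusted p below 0.05. The Ifit genes and Psmb10 lie farthest to the right in Tg saline against WT saline hearts, and no point is filled in Tg Ang II against Tg saline hearts.

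WT Ang II against WT saline hearts shows Ang II without the transgene. Here 8 of the 33 tested members rose and 0 fell. These are 24.2%, against 18.5% of all genes that changed, 9.66% called higher and 8.8% called lower. The median log2 fold change was 0.18 over the members, of which 28 of 33 were above 0, and -0.00 over all genes. At an unadjusted p below 0.05, 16 members were higher and 0 lower, beside 3773 of the 11628 tested genes in either direction. DESeq2 called 9 higher and 0 lower. With library size as the only scaling, 13 rose and 0 fell. The shares of all genes called under these settings are not given here, so the higher counts are not read as a stronger response of the members.

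Irf7 ran from 1.78 to 3.77 scaled FPKM with a median of 3.07 in WT Ang II hearts, and from 1.3 to 2.38 with a median of 2.01 in WT saline hearts. The groups overlapped by a single WT Ang II library, and the log2 fold change was 0.64 ± 0.13 (SE; adjusted p = 0.000281). Psmb10 ran from 12.1 to 19.5 with a median of 14.6 in WT Ang II hearts, and from 8.70 to 12.5 with a median of 11 in WT saline hearts. Again 1 library overlapped, with 13 of 14 above every WT saline library, and the log2 fold change was 0.47 ± 0.08 (SE; adjusted p = 3.29e-05). Psmb8 and Psmb9 had log2 fold changes of -0.04 and -0.16 (adjusted p = 0.834 and 0.447). Of the other regulators and effectors named throughout, Irf9 was at 0.11, Irf1 at -0.08, Ifitm3 at 0.23 and Gbp2 at 0.01, and none passed (adjusted p = 0.305, 0.572, 0.0716 and 0.972).

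Oas1a ran from 0.900 to 2.93 scaled FPKM with a median of 1.56 in WT Ang II hearts, and from 0.878 to 1.43 with a median of 1.0 in WT saline hearts. Its log2 fold change was 0.55 ± 0.14 (SE; adjusted p = 0.00421), and 8 of 14 libraries lay above every WT saline library. Isg15 ran from 1.28 to 5.96 with a median of 2.56 in WT Ang II hearts, and from 1.31 to 2.62 with a median of 1.67 in WT saline hearts. The ranges overlapped widely at the low end, and the log2 fold change was 0.54 ± 0.17 (SE; adjusted p = 0.0191). Ifit1 rose by 0.50 ± 0.15 (SE; adjusted p = 0.0164) and Ifit3 by 0.44 ± 0.15 (SE; adjusted p = 0.0359). Ifi35, a signalling partner of NMI, rose by 0.22 ± 0.07 (SE; adjusted p = 0.0207), and the receptor-transporting protein Rtp4 by 0.33 ± 0.11 (SE; adjusted p = 0.0272). Rtp4 overlaps Masp1 on the other strand, which itself had a log2 fold change of 0.53 ± 0.11 (SE; adjusted p = 0.000714), so reads of these 2 genes may not have been told apart. Masp1 also rose by 1.23 ± 0.12 (SE) between Tg saline and WT saline hearts. Between Tg Ang II and WT Ang II hearts it rose by 0.94 ± 0.11 (SE). Rtp4 was called in neither of these comparisons.

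Single libraries weighed on this count. Without WT Ang II library 165, 5 members were called and Ifit3, Isg15 and Rtp4 were not; without WT saline library 239, 15 were called. The call of Rtp4 also ended without library 234, 332, 718 or 968. That of Ifit3 ended without any of libraries 157, 163, 165, 234, 329, 332, 718, 774, 776, 779 or 968, its highest adjusted p being 0.0737. The runs of library numbers as a term ended the calls of Ifit3 and Isg15. Without libraries 329 and 847, 9 members were called, among them 7 of the 8; Ifit3 was at an adjusted p of 0.0553.

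Psmb10, Irf7, Oas1a, Ifit1 and Ifit3 were called higher both in Tg saline and in WT Ang II hearts, each set against the same WT saline libraries, so that their presence in both comparisons is not a separate result. Their log2 fold changes were 0.58 and 0.47 for Psmb10, 0.42 and 0.64 for Irf7, 0.41 and 0.55 for Oas1a, 0.58 and 0.50 for Ifit1, and 0.65 and 0.44 for Ifit3.

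**Figure D3:**
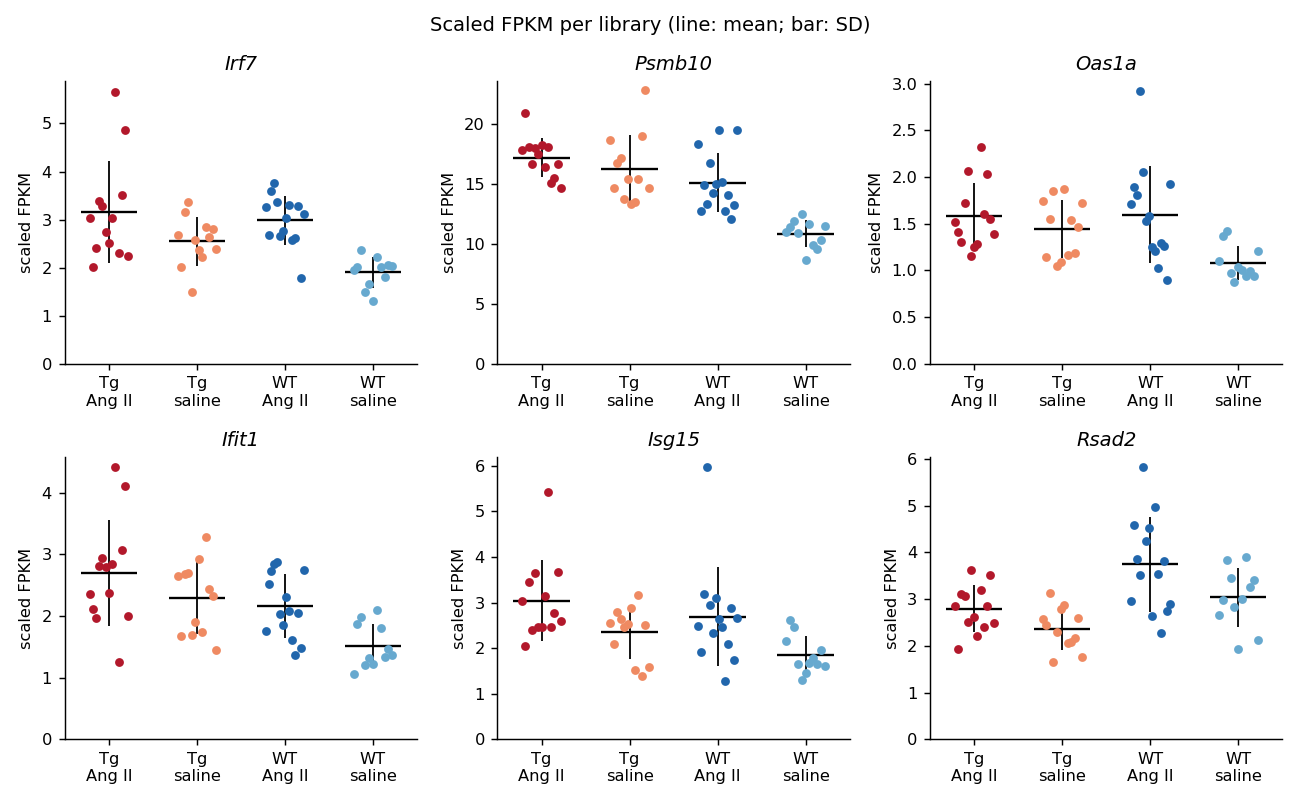
Scaled FPKM of 6 members in each of the 50 libraries, by group, with the mean (line) and 1 SD (bar). Psmb10 is at 8.70 to 12.5 in WT saline hearts, below all 12 Tg saline libraries, while Rsad2 is lowest on average in Tg saline hearts.

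Tg Ang II against Tg saline hearts shows Ang II in the presence of the transgene. Here 0 of the 33 tested members passed the test in edgeR, and 8.84% of all genes did, 4.85% higher and 3.99% lower. DESeq2 and limma-trend also called 0. At an unadjusted p below 0.05, 5 members were higher and 3 lower, beside 2707 of the 11628 tested genes in either direction. Irf7 ran from 2.01 to 5.66 scaled FPKM with a median of 3.03 in Tg Ang II hearts, and from 1.48 to 3.37 with a median of 2.60 in Tg saline hearts. The groups overlapped, and the log2 fold change was 0.31 ± 0.12 (SE; adjusted p = 0.112). Isg15 had a log2 fold change of 0.38 ± 0.16 (SE; adjusted p = 0.145), Oas1a 0.13 ± 0.14 (SE; adjusted p = 0.615), Ifit1 0.24 ± 0.15 (SE; adjusted p = 0.347) and Psmb10 0.08 ± 0.08 (SE; adjusted p = 0.587). Psmb8 had the lowest adjusted p, 0.0832, at a log2 fold change of -0.28 ± 0.10 (SE); without library 154 or library 158 it was called lower, as the only member. Ifitm3, Gbp2, Irf9 and Irf1 were at -0.08, -0.07, 0.04 and -0.20 (adjusted p = 0.637, 0.765, 0.769 and 0.169).

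The difference between the Ang II responses of Tg and WT hearts was tested as an interaction. No member passed in edgeR, where 0.0172% of all genes did, nor in DESeq2. At an unadjusted p below 0.05 there were 5 members, all below 0, beside 1125 of the 11628 tested genes in either direction. The estimate was below 0, meaning a smaller or more negative response in Tg hearts, for 27 of the 33 members, with a median of -0.14 over the members and -0.00 over all genes. Psmb10 had the lowest adjusted p, 0.18, at -0.39 ± 0.11 on the log2 scale (SE; 95% interval -0.61 to -0.18). Irf7 was at -0.34 (95% interval -0.68 to 0.01), Oas1a at -0.42 (-0.80 to -0.04) and Isg15 at -0.16 (-0.62 to 0.30). The other members named throughout were Ifitm3 at -0.32, Ifit1 at -0.26, Psmb8 at -0.24, Irf1 at -0.12, Gbp2 at -0.08 and Irf9 at -0.06. Bst2, which is not among the members named throughout, was at -0.54 (-0.95 to -0.14). No member's Ang II response was shown to differ between Tg and WT hearts.

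Tg Ang II against WT Ang II hearts shows the transgene under Ang II. Here 4 of the 33 tested members rose and 4 fell, together 24.2%, below the 32.7% of all genes that changed (16.3% higher and 16.4% lower). Ifit2 ran from 4.20 to 7.53 scaled FPKM with a median of 5.68 in Tg Ang II hearts, and from 0.115 to 4.87 with a median of 3.31 in WT Ang II hearts. The ranges overlapped for 3 of the 13 Tg libraries, and the log2 fold change was 0.78 ± 0.19 (SE; adjusted p = 0.00145). Eif2ak2 rose by 0.29 ± 0.10 (SE; adjusted p = 0.0149), Parp9 by 0.20 ± 0.07 (SE; adjusted p = 0.0299) and Psmb10 by 0.19 ± 0.07 (SE; adjusted p = 0.0470).

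The members that fell were Trim25, Irf1, Rsad2 and Ifi35. Trim25 ran from 3.17 to 5.02 scaled FPKM with a median of 3.83 in Tg Ang II hearts, and from 2.98 to 6.28 with a median of 4.95 in WT Ang II hearts. Its low end in WT Ang II hearts was library 329, the library labelled WT with Larp6 in the range of Tg hearts; the other 13 ran from 3.94 to 6.28. The log2 fold change was -0.29 ± 0.07 (SE; adjusted p = 0.000999). Irf1, a regulator of the interferon gamma response, ran from 2.49 to 4.78 with a median of 3.58 in Tg Ang II hearts, and from 3.27 to 5.77 with a median of 4.42 in WT Ang II hearts; it fell by 0.34 ± 0.09 (SE; adjusted p = 0.00234). The low end of Irf1 in WT Ang II hearts was also library 329, and the other 13 ran from 3.845 to 5.77. Rsad2 ran from 1.93 to 3.62 with a median of 2.85 in Tg Ang II hearts, and from 2.27 to 5.83 with a median of 3.68 in WT Ang II hearts. It fell by 0.41 ± 0.12 (SE; adjusted p = 0.00464), with the groups overlapping. Ifi35 fell by 0.19 ± 0.07 (SE; adjusted p = 0.0225). Irf7 and Oas1a were at 0.08 and -0.01 (adjusted p = 0.658 and 0.966). Ifit1, Isg15, Psmb8 and Gbp2 did not pass either, at 0.32, 0.18, -0.23 and -0.23 (adjusted p = 0.076, 0.406, 0.0672 and 0.0855), nor did Irf9 and Ifitm3, at -0.02 and 0.01.

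Without library 847 the count was 5, with Ifi35, Parp9 and Psmb10 no longer called. Parp9 also lost its call without library 154, 328, 715, 720, 721, 722 or 778. Psmb10 lost it without any of libraries 154, 160, 161, 165, 238, 295, 296, 297, 299, 326, 328, 331, 332, 489, 715, 720, 721, 722 or 778. Without library 329 alone, Ifi35, Parp9 and Psmb10 stayed called (adjusted p = 0.0269, 0.0288 and 0.0210). Gbp2 and Oas2 were then also called lower (adjusted p = 0.0381 and 0.0271). Without both libraries 329 and 847, 3 members rose and 7 fell. Gbp2, Oas2, Psmb8 and Xaf1 joined the lower ones, and Ifi35 and Parp9 were no longer called. With library size as the only scaling, 7 rose and 3 fell. The shares of all genes called in these alternative fits are not given here. In both treatments Ifit2, Eif2ak2, Parp9 and Psmb10 were called higher and Rsad2 and Trim25 lower in Tg hearts, in comparisons that share no library. The share of all genes called the same way in both treatments was not counted. Of all genes, 40.5% were called between Tg saline and WT saline hearts and 32.7% between Tg Ang II and WT Ang II hearts.

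The 3 Ifit members lie in a cluster on chromosome 19, where Ifit2 starts at 34550694 and Ifit1 ends at 34650009. Between Tg saline and WT saline hearts their neighbours Ifit1bl1 and Ifit3b also rose, by 0.83 ± 0.12 and 0.97 ± 0.17 on the log2 scale (SE; adjusted p = 4.32e-07 and 7.13e-06). Ifit1bl2 did not pass, at 0.22 ± 0.11 (SE; adjusted p = 0.105). On the Ifit2 side, Lipa, a lysosomal lipase gene, was at -0.00 ± 0.07 (SE; adjusted p = 0.984), and Ch25h beyond it, an interferon-induced sterol hydroxylase, rose by 0.93 ± 0.25 (SE; adjusted p = 0.00248). Ifit3 and Ifit3b are close copies, as are Ifit1 and Ifit1bl1, so reads may be divided between them. Between WT Ang II and WT saline hearts Ifit1bl1 was at 0.01 ± 0.12 and Ifit3b at 0.36 ± 0.16 (SE; adjusted p = 0.957 and 0.105).

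Ifit2 nearly disappeared from a single library. In library 234 (WT Ang II male) it had 32 counts, or 0.115 scaled FPKM, against 602 to 2772 counts and 2.31 to 7.53 scaled FPKM in the other 49 libraries, whose median of 4.20 was 36.4-fold higher. Of the neighbouring genes, Ifit3 stood at 8.74 and Ifit1 at 2.88 scaled FPKM there, above the other 13 WT Ang II libraries in both cases. Lipa, on the other side of Ifit2, stood at 2.50, just below the 2.63 to 4.05 of those libraries. At a looser limit, library 234 held 2 tested genes more than 5-fold below every other library, and library 965 held 6. These counts were not matched for level. They do not show how often a drop as deep as that of Ifit2 occurs. Library 234 was the highest of its group for 11 of the 39 members and the lowest for 1. Without it, Ifit2 averaged 3.54 ± 0.735 in WT Ang II hearts (SD, n = 13). The log2 fold change of Ifit2 without library 234 was 0.67 ± 0.10 between Tg Ang II and WT Ang II hearts (SE; adjusted p = 1.37e-06), 0.79 ± 0.11 between Tg saline and WT saline hearts (SE; adjusted p = 1.28e-07) and 0.29 ± 0.11 between WT Ang II and WT saline hearts (SE; adjusted p = 0.0514).

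**Figure D4:**
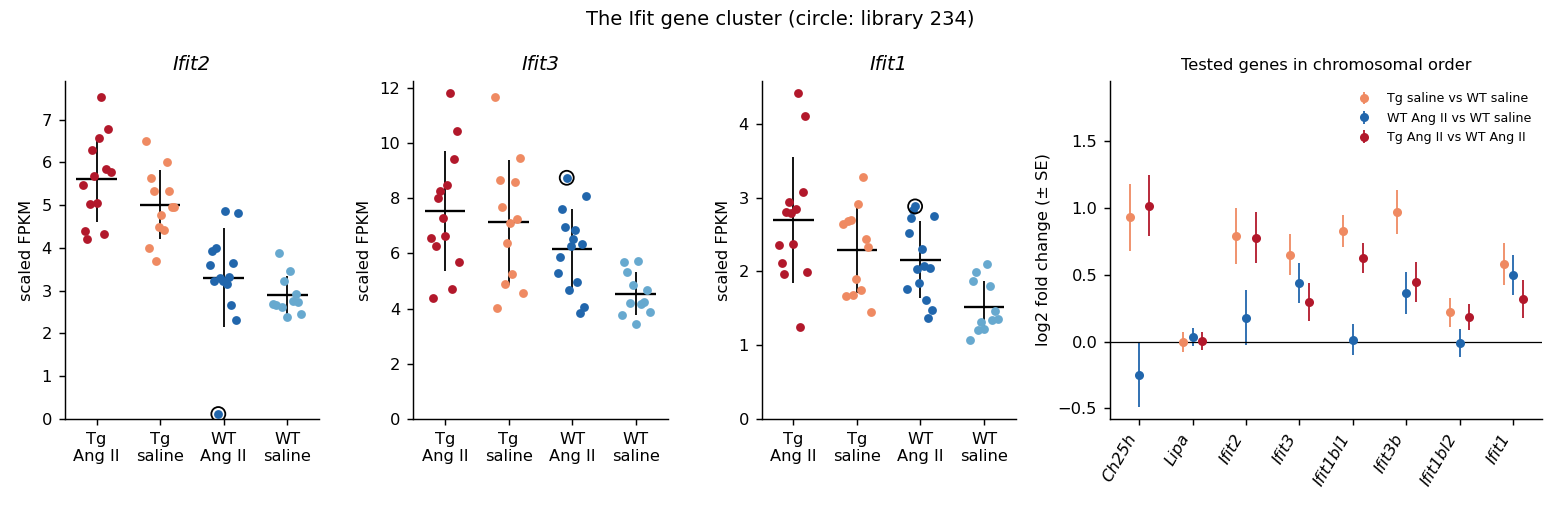
Scaled FPKM of Ifit2, Ifit3 and Ifit1 in each library (line, mean; bar, SD; circle, library 234) and, at the right, log2 fold changes (± SE) of the tested genes of the chromosome 19 cluster in their order along the chromosome. Library 234 is at 0.115 for Ifit2 and highest of the WT Ang II hearts for Ifit3 and Ifit1.

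Members were also compared in how they varied between animals of the same group. For each library the deviation of log2(scaled FPKM + 1) from the mean of its genotype, treatment and sex was taken, and the deviations of the other 32 tested members were correlated with those of Irf7 over the 50 libraries. All 32 Pearson correlations were above 0, with a median r of 0.48; over all 11627 tested genes the median r was 0.00. By a permutation test (100000 permutations within groups, two-sided, Benjamini-Hochberg adjusted over the 11627 genes, an adjustment added after seeing the data) 14 of the 32 passed by Pearson's r, all positive, against 0.688% of all genes (0.473% positive). By Spearman's rho 18 passed, against 1.1% of all genes. The highest were Usp18 (r = 0.80, rho = 0.80), Ifit3 (r = 0.75, rho = 0.78), Ifit1 (r = 0.75, rho = 0.76) and Oasl2 (r = 0.73, rho = 0.69). Each of these had the smallest p that the permutations can give, 1e-05 (adjusted 0.00646 for r). Lowest were Oas2 (r = 0.08, rho = 0.07) and Trim25 (r = 0.12, rho = 0.14), with adjusted p-values of 0.823 and 0.730 by r. Rsad2 did not pass either, at r = 0.28 and rho = 0.29 (adjusted p = 0.338 and 0.316).

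Adjusted over the 32 members alone, 25 passed by r and 27 by rho, and the following counts use that adjustment. By Pearson's r, 25 of the 32 members (78.1%) had an unadjusted permutation p below 0.05. Of all 11627 genes, 2011 (17.3%) did. Figures for all genes are not given here where libraries or runs of library numbers were taken out. Libraries 715 (Tg Ang II) and 237 (Tg saline) deviated most in Irf7 from the mean of their genotype, treatment and sex, by 0.55 and -0.47 on the log2 scale. Without them 25 correlations passed, 24 of them shared with the 25 above; r was 0.75 for Usp18, 0.73 for Ifit3, 0.72 for Ifit1 and 0.65 for Oasl2. Without libraries 329 and 847, 27 passed. Once the runs of library numbers were also taken out, all 32 remained above 0, with a median r of 0.53.

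Within Tg and within WT hearts, r with Irf7 was 0.77 and 0.86 for Usp18 and 0.78 and 0.71 for Ifit3. Other members were further apart: r was -0.02 in Tg and 0.59 in WT hearts for Ifi35, 0.04 and 0.69 for Ifitm2, and 0.08 and 0.51 for Ifi27. The difference between the genotypes was not tested. Ifit2, at 0.79 in Tg and 0.04 in WT hearts, depended on the single low library: over all 50 libraries r was 0.30 and rho 0.55 (adjusted over all genes, p = 0.326 and 0.0302), and without library 234 r was 0.69 and rho 0.66. That library was left out after the data were seen. Without it 23 members passed in place of 25, as Ifit2 was gained and Irf1, Psmb9 and Gbp2 were lost (adjusted p = 0.0544, 0.0616 and 0.0656). These libraries share a tissue and a protocol, and the correlations say nothing of control by Irf7.

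**Figure D5:**
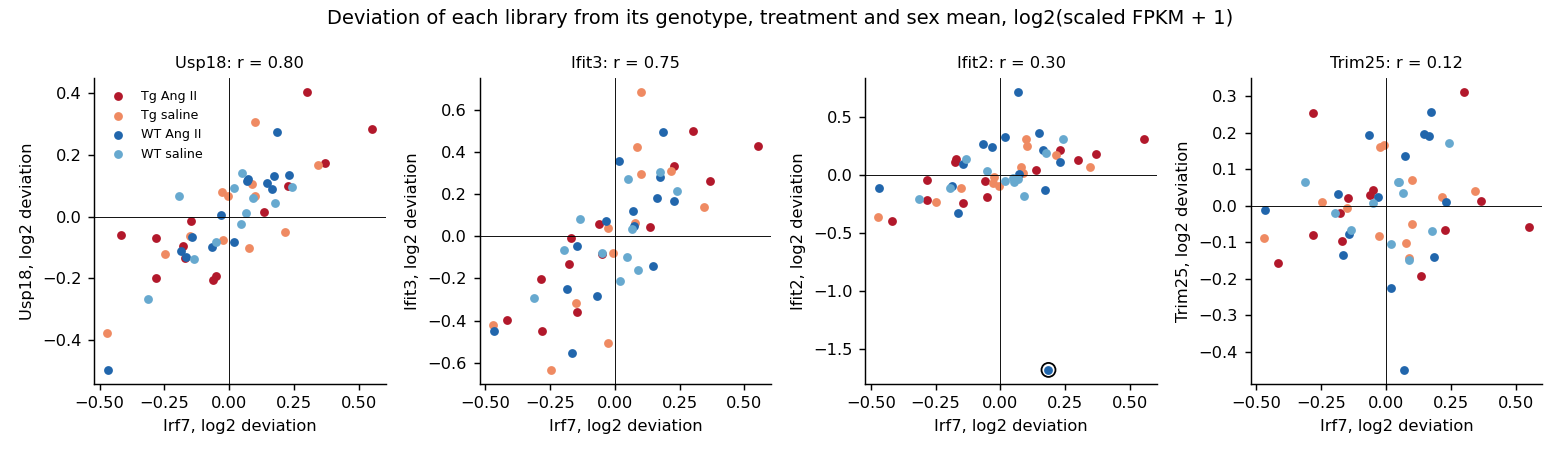
Deviation of each library from the mean of its genotype, treatment and sex, in log2(scaled FPKM + 1), for Irf7 (x axis) and for Usp18, Ifit3, Ifit2 and Trim25 (y axes). The points rise together for Usp18 (r = 0.80) and Ifit3 (r = 0.75) and hardly for Trim25 (r = 0.12); the circled point of Ifit2 is library 234.

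The genes upstream of the members were followed as lists. Of all genes, 20.4% were called higher and 20.1% lower between Tg saline and WT saline hearts. Between WT Ang II and WT saline hearts these shares were 9.66% and 8.8%. Of 21 interferon genes, 10 were in the table and 0 were tested, as all lay below the filter; their summed level ran from 0.00363 to 0.107 scaled FPKM in Tg Ang II hearts, from 0.00948 to 0.154 in Tg saline hearts, from 0.00794 to 0.131 in WT Ang II hearts and from 0.0120 to 0.158 in WT saline hearts. Ifnb1 had no count in 48 of the 50 libraries and Ifng none in 34. Of the interferon receptors, kinases and their inhibitors, 13 were tested. Between Tg saline and WT saline hearts 3 rose and 3 fell: Socs3, a feedback inhibitor of cytokine receptors, rose by 0.79 ± 0.17 (SE; adjusted p = 0.000179), while Il10rb, a receptor chain of type III interferon, Ifngr2 and Jak1 fell by 0.38, 0.27 and 0.23 (adjusted p = 5.14e-06, 0.000478 and 3.62e-05). Ifngr1 was also among those that rose, by 0.20 ± 0.07 (SE, adjusted p = 0.0216). Between WT Ang II and WT saline hearts 2 rose, Ifngr1 by 0.27 and the phosphatase Ptpn2 by 0.15 (adjusted p = 0.00477 and 0.0381), and 0 fell.

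Of the genes that sense nucleic acids and signal to interferon, 18 were tested. Between Tg saline and WT saline hearts 5 rose and 3 fell, beside 20.4% and 20.1% of all genes. Irf5 rose by 0.68 ± 0.15, Traf3 by 0.40 ± 0.09 and Ticam1 by 0.26 ± 0.06, and Mavs, the mitochondrial adaptor of the RNA sensors, fell by 0.40 ± 0.08 (SE; adjusted p = 0.000194, 0.000274, 0.000962 and 4.69e-05). Between WT Ang II and WT saline hearts 0 rose and 1 fell, the RNA-editing enzyme gene Adar at -0.14 (adjusted p = 0.0464).

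A further 61 interferon-induced genes outside the 39 were tested. Between Tg saline and WT saline hearts 10 rose and 13 fell, beside 20.4% and 20.1% of all genes, with a median log2 fold change of -0.01. Beside Ifit1bl1 and Ifit3b, the lowest p-values belonged to Ifi27l2a, which rose by 1.27 ± 0.22 (SE; adjusted p = 8.13e-06), and Lgals3bp, which rose by 0.53 ± 0.10 (SE; adjusted p = 2.70e-05). Those that fell included the guanylate-binding proteins Gbp4, Gbp9, Gbp7 and Gbp5, by 0.68, 0.54, 0.45 and 0.41 (adjusted p = 0.000881, 0.000200, 0.000908 and 0.0276), which were picked out after their values were seen. Between WT Ang II and WT saline hearts 8 rose, led by Gbp6 at 0.55 ± 0.16 and Plscr1 at 0.26 ± 0.07 (SE; adjusted p = 0.0103 for each), and 1 fell. Between Tg Ang II and WT Ang II hearts 6 rose and 11 fell, beside 16.3% and 16.4% of all genes. Of 15 further genes of the class I antigen path, 1 rose (B2m, by 0.30) and 1 fell (Psme1, a proteasome activator subunit, by 0.49) between Tg saline and WT saline hearts, and 0 rose and 6 fell between Tg Ang II and WT Ang II hearts.

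No member passed the test between females and males, where 4.36% of all genes did, 1.84% higher and 2.52% lower in females. At an unadjusted p below 0.05 there were 3 members, beside 2233 of the 11628 tested genes, and DESeq2 called 0 members. The sex difference of the transgene response under saline and that of the Ang II response in WT hearts gave 0 called members each, with 0 and 1 at an unadjusted p below 0.05, and 0% of all genes was called in either. Of all 11628 tested genes, 634 and 748 had an unadjusted p below 0.05.

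Markers of other cell types moved with these comparisons, and their part in the results was not tested. The summed level of 14 macrophage markers ran from 132 to 267 scaled FPKM in Tg Ang II hearts, from 166 to 458 in Tg saline hearts, from 93.0 to 252 in WT Ang II hearts and from 111 to 143 in WT saline hearts. Of 12 tested macrophage markers 9 rose between Tg saline and WT saline hearts, 7 between Tg Ang II and WT Ang II hearts and 1 between WT Ang II and WT saline hearts. Of all genes, 20.4%, 16.3% and 9.66% were called higher in these comparisons, in that order, and 20.1%, 16.4% and 8.8% lower. The sum of 10 endothelial markers ran from 109 to 170 in Tg Ang II hearts, from 106 to 149 in Tg saline hearts, from 131 to 248 in WT Ang II hearts and from 148 to 228 in WT saline hearts, and 9 of 10 fell with the transgene in both treatments. The 10 fibroblast markers summed to medians of 506, 599, 419 and 413 in the same order of groups. All 10 rose between Tg saline and WT saline hearts. Between Tg Ang II and WT Ang II hearts 7 rose and 0 fell, and between WT Ang II and WT saline hearts 4 rose and 1 fell. Of 9 markers of pericytes and smooth muscle, 2 rose and 6 fell between Tg saline and WT saline hearts. Under Ang II, 2 rose and 5 fell with the transgene. Of 14 lymphocyte markers none was tested, and their sums ran from 0.525 to 3.9 over all libraries. Bst2, which also marks plasmacytoid dendritic cells, was 1 of 2 tested genes of that list to rise between Tg saline and WT saline hearts; Siglech, which defines these cells, had no count in 20 libraries and averaged 0.0238. The 10 cardiomyocyte markers summed to 17517 to 23213 scaled FPKM over all libraries, and 6 of them fell between Tg saline and WT saline hearts. Between Tg Ang II and WT Ang II hearts 1 rose and 7 fell.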

How the data were processed

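Poly(A) RNA of 50 left ventricles was sequenced as paired ends from dUTP-marked libraries, per the labels' protocols. Tools named in the submitters' processing notes are cutadapt 1.9, FastQC, HISAT2 2.0.4 and StringTie 1.3.4d. Neither the counting tool, its strand setting nor the genome build is given in the sources used here; 91.6% of 35599 genes matched by identifier had the start and end of GENCODE M21. The deposited table gives, for each gene and library, the authors' whole-number counts and the authors' FPKM, which are scaled to length and library size. No labels state separate cultures or litters; every library number occurs once and was taken as a mouse, so p-values measure the spread between these libraries.

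Counts were tested with edgeR 4.0.16 (quasi-likelihood, median-of-ratios scaling) in R 4.3.3 over 8 means of genotype, treatment and sex, sexes weighted equally, on genes with FPKM of at least 1 in 5 libraries, with Benjamini-Hochberg adjustment over 11628 genes. The scripts were tested on simulated data. Fold changes are the fitted ones; levels are deposited FPKM divided by a median-of-ratios factor, with pseudocount 1 for deviations. Alternatives used DESeq2 1.42.0, limma 3.58.1, other scalings and filters, a term for 10 runs of library numbers separated by gaps over 20, each sex alone, and each library left out. Members and lists were chosen with earlier results of these data known. Named were 9 fixed members (Irf7, Irf9, Irf1, Oas1a, Ifit1, Isg15, Ifitm3, Gbp2 and Psmb8), called members, and up to 4 genes of each other list. Ifngr1 between Tg saline and WT saline hearts was named beyond these.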

Additional observations from a re-analysis of the deposited data

How the results depend on the processing

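Of the tested members Isg15 had the fewest counts (57 to 358 per library) apart from Ifit2 in library 234; below 1 FPKM, Mx1 and Oas3 had as few as 9 and 6. TMM scaling, DESeq2, limma-trend and a fit without sex left the counts of called members within 1.5 times. Between Tg saline and WT saline hearts 8 were called with runs of library numbers as a term, 6 in females alone and 4 in males alone, where fewer libraries entered. Between WT Ang II and WT saline hearts there were 13 with library size alone, 1 in females and 2 in males, and 5 to 15 with each library left out. Between Tg Ang II and WT Ang II hearts there were 3 in females, 4 in males and 5 to 12 with each library left out; between Tg Ang II and Tg saline hearts 0 to 1. The shares of all genes called under each of these settings are not set beside the counts. Of the correlations with Irf7, 25 passed when adjusted over the 32 members and 14 when adjusted over all tested genes. No paired analysis was possible because no library number occurs in more than 1 group. The cause was not tested.

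Under these settings no called member changed direction. Uncalled fixed members did, as log2 fold changes. With library size alone, these were Psmb8 at 0.026 between WT Ang II and WT saline hearts and Irf9 at 0.062 and Oas1a at 0.062 between Tg Ang II and WT Ang II hearts. With the runs of library numbers as a term, these were Psmb8 at -0.0077 between Tg saline and WT saline hearts, Ifitm3 at 0.043 between Tg Ang II and Tg saline hearts, Oas1a at 0.073 between Tg Ang II and WT Ang II hearts and Isg15 at 0.043 in the interaction. With limma-trend, Oas1a was at 0.0042 (pseudocount 1) and 0.017 (pseudocount 0.1) between Tg Ang II and WT Ang II hearts. In females alone, these were Psmb8 at -0.079 between Tg saline and WT saline hearts, Ifit1 at -0.0014 and Irf9 at -0.078 between Tg Ang II and Tg saline hearts and Isg15 at -0.073, Irf7 at -0.19 and Ifitm3 at -0.083 between Tg Ang II and WT Ang II hearts. In males alone, these were Psmb8 at 0.040 and Gbp2 at -0.034 between WT Ang II and WT saline hearts, Gbp2 at 0.0025 between Tg Ang II and Tg saline hearts, Irf9 at 0.058 and Oas1a at 0.087 between Tg Ang II and WT Ang II hearts and Isg15 at 0.084, Irf9 at 0.033 and Gbp2 at 0.037 in the interaction. With each library left out, Psmb8 changed sign in 14 fits between Tg saline and WT saline hearts. Between WT Ang II and WT saline hearts Gbp2 did so in 9 fits and Psmb8 in 1. Between Tg Ang II and WT Ang II hearts Oas1a did so in 12 fits, Ifitm3 in 4, Irf9 in 2 and Irf7 in 1.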
